A study of Mus musculus with 23 samples.

Results

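The insulin-like growth factor axis was followed here through 10 genes: the ligand gene Igf1, the receptor genes Igf1r, Igf2r and Insr, and the binding protein genes Igfbp2, Igfbp3, Igfbp4, Igfbp5, Igfbp6 and Igfbp7. They were chosen by name, with earlier results of these data known. All 10 were found among the 27466 genes of the count table and passed the filter on low counts, which 19255 genes passed. Bulk polyA RNA of CD-1 mouse testis was sequenced either directly, from pups of 6.5 or 10.5 days postpartum (dpp) and later from mice of 22.5 or 36.5 dpp, or after testis explants taken at 6.5 dpp had been kept in culture for 4, 16 or 30 days (D4, D16, D30). The explants grew in α-MEM with KnockOut serum replacement, gentamicin and retinol. The 21 libraries compared were 4 of 6.5 dpp (1 fresh and 3 thawed after controlled slow freezing, CSF), 3 each of 10.5 dpp, 22.5 dpp and D4, 2 each of 36.5 dpp and D16, and 4 of D30 (3 cultured fresh and 1 cultured after CSF, which stands last wherever D30 values are listed). The remaining groups were fresh tissue. Each culture library pooled several explants, which were fragments of testes, after their necrotic centre had been cut away, so it holds the outer part of the tissue. The labels do not tie replicates to single animals, so the p-values measure only the spread between these samples.

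IGF1 signals through the type 1 receptor encoded by Igf1r and, less strongly, through the insulin receptor encoded by Insr. The type 2 receptor encoded by Igf2r, which also binds mannose 6-phosphate, takes up IGF2 for degradation and does not signal in that way. Most binding proteins hold IGFs outside the cell with high affinity and release them when proteases cut them, whereas IGFBP7 binds IGFs weakly. In the testis this axis acts on Leydig cells and on the proliferation of Sertoli cells before puberty, and binding proteins are made by several somatic cell types.

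A pair of deposited libraries was left out. The library labelled 6.5 dpp fresh replicate 3 holds the same count as replicate 2 for every gene. The library labelled 6.5 dpp fresh replicate 1 had a Spearman correlation over genes of 0.985 with D16 replicate 1 and of 0.928 with 6.5 dpp fresh replicate 2. With the uncultured 22.5 dpp libraries it was 0.9745 to 0.9814, and with the D30 libraries 0.9744 to 0.9818. The calls of the 10 genes that ended when this library was kept are named with the results. Total counts ran from 28351546 to 69029328 per library. Levels are given in CPM, the counts of a gene per 1000000 counts of its library, and fold changes come from edgeR with TMM scaling (below), called at a Benjamini-Hochberg adjusted p under 0.05 over all genes tested. The TMM factors were 0.661 and 0.645 for the 36.5 dpp libraries and 0.877 to 1.15 for the others. A ratio of mean CPM over 36.5 dpp thus exceeds the edgeR fold change.

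The promoters of 3 binding protein genes are shown because their transcripts moved furthest between testis and culture in both directions: Igfbp3 and Igfbp5, which were higher in every culture comparison, and Igfbp2, which was lower in the later 2. Each line holds the 250 bases before the RefSeq start site, 5′ to 3′ on the strand of the gene, from build GRCm38.p6, as chr11:7213924-7214173 (minus strand) for Igfbp3, chr1:72874866-72875115 (minus strand) for Igfbp5 and chr1:72824230-72824479 (plus strand) for Igfbp2. Capitals mark the letters GCGTG or the letters ACGTG, and the runs named TATAAA or, alike in kind, TATATA or else the run TTTAAA, each on either strand.
Igfbp3: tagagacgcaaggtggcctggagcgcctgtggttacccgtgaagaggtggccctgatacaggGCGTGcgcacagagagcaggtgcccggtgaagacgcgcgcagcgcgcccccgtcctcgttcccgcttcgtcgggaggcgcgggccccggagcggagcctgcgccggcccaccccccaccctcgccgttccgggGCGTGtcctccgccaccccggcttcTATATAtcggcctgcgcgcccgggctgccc
Igfbp5: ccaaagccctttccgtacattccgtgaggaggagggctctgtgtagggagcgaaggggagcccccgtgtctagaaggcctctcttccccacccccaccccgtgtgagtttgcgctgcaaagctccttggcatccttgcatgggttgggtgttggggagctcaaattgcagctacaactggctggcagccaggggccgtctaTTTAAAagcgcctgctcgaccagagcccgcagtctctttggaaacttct
Igfbp2: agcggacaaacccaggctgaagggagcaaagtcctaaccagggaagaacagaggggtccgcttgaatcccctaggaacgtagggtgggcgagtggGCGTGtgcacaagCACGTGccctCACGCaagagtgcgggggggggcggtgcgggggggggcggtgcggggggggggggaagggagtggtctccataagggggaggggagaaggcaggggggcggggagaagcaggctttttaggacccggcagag

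The Igfbp3 promoter had a GC content of 73.2%, that of Igfbp2 67.2% and that of Igfbp5 58.8%, beside a median of 52.4% over the 32851 promoters of the table. TATATA, which 5.25% of those promoters hold in the same window, began 30 bases before the Igfbp3 start site. Igfbp3 also held GCGTG at 188 and 55 bases before the start, letters present in 28.2% of promoters. The Igfbp5 window had neither GCGTG nor ACGTG and neither TATAAA nor TATATA, and its TTTAAA, found in 12.1% of promoters, began 49 bases before the start. In the Igfbp2 window ACGTG (16.6% of promoters) lay on both strands as CACGTG, overlapping, with GCGTG on the same strand 155 bases and on the opposite strand 132 bases before the start. GGGCGG, the GC box, lay 3 times in Igfbp2 and in neither Igfbp3 nor Igfbp5, and 32.7% of promoters hold it. TATAAA, held by 12.4% of promoters, began 28 bases before the start of Igfbp4. These letters are a description of the sequence, and binding was not measured. The table has a second start for Igfbp2, which is not shown, and 9 of the 10 genes have an entry. The Igfbp3 start used lies inside the annotated gene (chromosome 11, 7206086 to 7215498), and Igfbp2 (chromosome 1, 72824480 to 72852474) and Igfbp5 (chromosome 1, 72858065 to 72874865) are neighbours on opposite strands.

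Igfbp3 encodes the main carrier of IGFs in serum, and in culture its transcript had the second highest mean of the 10 per kilobase of exon at each culture day (at D30, 108 ± 25 CPM per kb beside 105 ± 33 for Igfbp6, within the spread). In the testis its level was 51.2 CPM in the fresh library of 6.5 dpp and 48.7, 72.4 and 91.0 CPM in the CSF libraries, then 49.5, 44.7 and 47.7 CPM at 10.5 dpp. It was 3.54, 6.65 and 4.01 CPM at 22.5 dpp and 3.53 and 2.52 CPM at 36.5 dpp. In culture Igfbp3 was 411, 483 and 452 CPM at D4, 691 and 383 CPM at D16, and 347, 352, 233 and, in the CSF library, 424 CPM at D30. The 9 culture libraries thus lay above the 12 in vivo libraries without overlap, and the 3 culture stages overlapped each other.

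Igfbp3 ranked 44, 2 and 43 by p of the 19255 genes tested in the age-matched comparisons of D4, D16 and D30. D4 was 9.49 times 10.5 dpp in mean CPM, with a log2 fold change of 3.33 ± 0.32 (SE, edgeR adjusted p = 2.18e-06). D16 was 113 times 22.5 dpp, with a log2 fold change of 6.69 ± 0.38 (edgeR adjusted p = 1.11e-08). D30 was 112 times 36.5 dpp in mean CPM, without the TMM factors, with a log2 fold change of 6.18 ± 0.44 (edgeR adjusted p = 1.86e-08). The in vivo fall and the culture rise both enter these ratios: from 10.5 to 22.5 dpp the level fell by 3.04 on the log2 scale (SE 0.32, edgeR adjusted p = 3.57e-07), whereas D4 already stood 2.77 ± 0.28 above the uncultured 6.5 dpp tissue (edgeR adjusted p = 1.79e-06). With 6.5 dpp fresh replicate 1 kept, at 438 CPM, the D4 against 6.5 dpp value was 1.57 and was not called (edgeR adjusted p = 0.1).

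Igfbp5, a binding protein that also attaches to extracellular matrix, went the same way over a wider range. Its levels were 41.4 CPM in the fresh 6.5 dpp library, 77.8, 80.6 and 16.6 CPM in the CSF libraries and 25.8, 24.9 and 24.4 CPM at 10.5 dpp. They were 1.87, 4.30 and 2.24 CPM at 22.5 dpp and 0.297 and 0.386 CPM at 36.5 dpp, the latter from 10 and 15 counts. In culture the levels were 131, 129 and 146 CPM at D4, 93.8 and 84.6 CPM at D16, and 62.2, 62.4, 61.6 and 44.3 CPM at D30, the last in the CSF library. The culture stages did not overlap each other or their age-matched testes, but D30 overlapped 6.5 dpp.

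Igfbp5 was higher by 2.52 ± 0.39 (log2, SE) at D4 than at 10.5 dpp (edgeR adjusted p = 0.000328), by 4.86 ± 0.45 at D16 than at 22.5 dpp (edgeR adjusted p = 1.69e-06) and by 6.75 ± 0.60 at D30 than at 36.5 dpp (edgeR adjusted p = 1.15e-07). In vivo it fell by 2.88 on the log2 scale from 10.5 to 22.5 dpp (SE 0.40, edgeR adjusted p = 8.57e-06) and by 2.49 from 22.5 to 36.5 dpp (SE 0.54, edgeR adjusted p = 0.00103). D4 against 6.5 dpp gave 1.37 ± 0.34 (edgeR adjusted p = 0.00773), a call lost with 6.5 dpp fresh replicate 1 kept and in a fit of these 2 stages alone (edgeR adjusted p up to 0.0867). From D4 to D30 its mean level went from 135 to 57.6 CPM, and neither step, D16 against D4 at -0.55 ± 0.41 nor D30 against D16 at -0.60 ± 0.38, passed the test.

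Igfbp2, whose protein prefers IGF2, was the 1 gene of the 10 called lower in an age-matched comparison. It was 45.3 CPM in the fresh 6.5 dpp library, 52.2, 53.7 and 115 CPM in the CSF libraries, 57.3, 65.0 and 62.6 CPM at 10.5 dpp, 41.4, 59.6 and 54.2 CPM at 22.5 dpp and 66.3 and 28.8 CPM at 36.5 dpp. Culture libraries held 32.4, 41.8 and 53.1 CPM at D4, 23.0 and 23.7 CPM at D16 and 13.3, 16.7, 14.7 and, in the CSF library, 23.5 CPM at D30. Each culture stage lay below its age-matched testis without overlap. The log2 fold change was -0.45 ± 0.35 at D4 (not called, edgeR adjusted p = 0.578), -1.30 ± 0.41 at D16 (edgeR adjusted p = 0.028) and -2.11 ± 0.36 at D30 (edgeR adjusted p = 6.5e-05). The D16 call was lost without 22.5 dpp replicate 1 or 3, without either D16 library, with 6.5 dpp fresh replicate 1 kept and when libraries were scaled to somatic marker genes (edgeR adjusted p up to 0.182 over the alternatives).

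Igfbp4, encoding a binding protein that inhibits IGF action until the protease PAPP-A cuts it, fell in the growing testis and was above it in culture from D16. Its 6.5 dpp levels ran from 211 to 272 CPM and its 10.5 dpp levels were 225, 213 and 227 CPM, then 64.0, 88.4 and 87.2 CPM at 22.5 dpp and 14.7 and 14.2 CPM at 36.5 dpp. The culture values were 155, 200 and 215 CPM at D4, 133 and 128 CPM at D16, and 98.6, 104, 124 and 128 CPM at D30. D4 overlapped 10.5 dpp, and D16 and D30 lay above their age-matched testes. The in vivo falls were 1.18 (SE 0.15, edgeR adjusted p = 4.16e-06) from 10.5 to 22.5 dpp and 1.95 (SE 0.18, edgeR adjusted p = 3.87e-07) from 22.5 to 36.5 dpp on the log2 scale. Against the testis it was -0.13 ± 0.15 at D4 (not called), 0.56 ± 0.17 at D16 (edgeR adjusted p = 0.0233) and 2.33 ± 0.18 at D30 (edgeR adjusted p = 4.07e-08). The D16 call was lost under RLE factors, without 22.5 dpp replicate 1 or either D16 library, with 6.5 dpp fresh replicate 1 kept and in a fit of these 2 stages alone.

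Igfbp7, encoding the weak IGF binder made by vessels and other stroma, had the highest level per kilobase of the 10 genes in all 7 stages, at 226 ± 27 CPM per kb (SD, n = 3) at D4. Per library it ran from 148 to 168 CPM at 6.5 dpp and was 145, 178 and 149 CPM at 10.5 dpp, 73.2, 157 and 121 CPM at 22.5 dpp and 50.1 and 57.4 CPM at 36.5 dpp. Its culture levels were 239, 278 and 303 CPM at D4, 212 and 276 CPM at D16 and 125, 149, 201 and 194 CPM at D30, each stage above its age-matched testis without overlap. The log2 fold changes were 0.88 ± 0.21 (edgeR adjusted p = 0.0127), 0.92 ± 0.23 (edgeR adjusted p = 0.00965) and 0.99 ± 0.23 (edgeR adjusted p = 0.00115) for D4, D16 and D30. The D4 call was lost without 10.5 dpp replicate 1 or 3 or D4 replicate 3, the D16 call without D16 replicate 2 and in a fit of these 2 stages alone, and the D30 call under scaling to somatic markers (0.35, edgeR adjusted p = 0.101). Polr2b overlaps Igfbp7 on the other strand in the annotation, and the strand setting of the counting is not given in the sources used here.

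Igfbp6, encoding a binding protein that strongly prefers IGF2, was called in the last age-matched comparison alone. Its level was 105 CPM in the fresh 6.5 dpp library and 82.5, 119 and 249 CPM in the CSF libraries, 96.0, 121 and 116 CPM at 10.5 dpp, 62.0, 74.6 and 60.5 CPM at 22.5 dpp and 42.5 and 13.5 CPM at 36.5 dpp. D4, D16 and D30 values were 64.2, 94.9 and 106, then 107 and 80.4, then 76.9, 111, 111 and 166 CPM. D4 overlapped 10.5 dpp. D30 was higher than 36.5 dpp by 1.42 ± 0.46 on the log2 scale (edgeR adjusted p = 0.0117), and this call was lost without 36.5 dpp replicate 2, the lower of the pair, and under scaling to somatic markers.

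**Figure D1:**
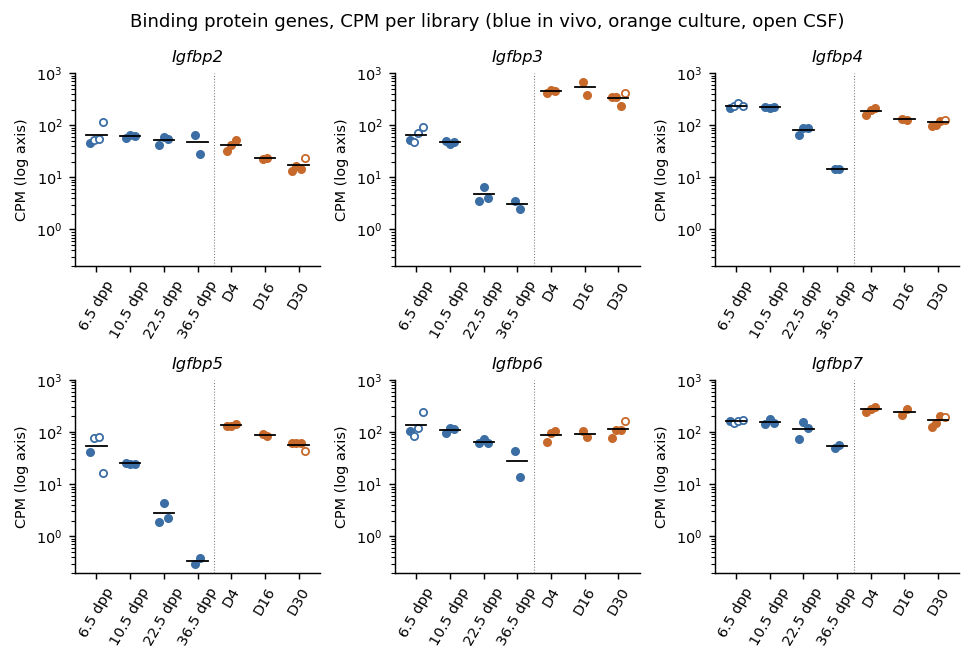
Levels of the 6 binding protein genes in each of the 21 libraries, in CPM on a shared log axis, by stage. Points are libraries (blue in vivo, orange culture, open symbols CSF) and bars are stage means. Igfbp3 in culture sits between 233 and 691 CPM against 2.52 to 91.0 CPM in vivo, and Igfbp2 goes down to 13.3 CPM at D30.

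The mixture of binding protein transcripts is given next. As a share of the CPM per kb summed over the 6 genes, Igfbp3 made up 5.51 ± 0.60% (SD, n = 4) at 6.5 dpp, 4.57 ± 0.57% at 10.5 dpp, 0.733 ± 0.11% at 22.5 dpp and 0.978 ± 0.053% at 36.5 dpp. In culture it made up 26.8 ± 2.1% at D4, 32.8 ± 10% at D16 and 27.7 ± 6.3% at D30, with a lowest library of 19.2%. Igfbp2 went the other way, with 9.20 ± 2.1% at 6.5 dpp and 24.8 ± 7.3% at 36.5 dpp but 4.24 ± 0.55% at D4 and 2.31 ± 0.22% at D30. Igfbp7 kept between 35.0% and 47.2% of the sum in the stage means. The sum itself was 378 ± 91 CPM per kb at 6.5 dpp and 99.7 ± 29 at 36.5 dpp, and in culture it was 538 ± 68 at D4, 515 ± 51 at D16 and 396 ± 71 at D30. Set against Igf1 per kilobase, the ratio of the sum to Igf1 was 32.7 ± 14 at 6.5 dpp. It was 37.2 ± 7.4 at 10.5 dpp beside 35.9 ± 8.8 at D4, and 40.9 ± 16 at 22.5 dpp beside 49.5 ± 7.0 at D16, each pair within its spread. It was 85.3 ± 16 at 36.5 dpp beside 45.6 ± 7.4 at D30. These shares lie on transcripts and do not depend on how libraries are scaled, but genes of unlike exon length enter them. Libraries of a stage differed by exon length (below). In 6.5 dpp CSF replicate 3 the ratio to Igf1 was 53.8, beside 24.9 to 26.8 in the other libraries of that age. Igfbp6 made up 43.9% of the sum in that library, beside 24.3 to 28.9%, and Igfbp5 0.544%, beside 2.10 to 4.24%. The part of exon length in these shares and ratios was not tested.

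**Figure D2:**
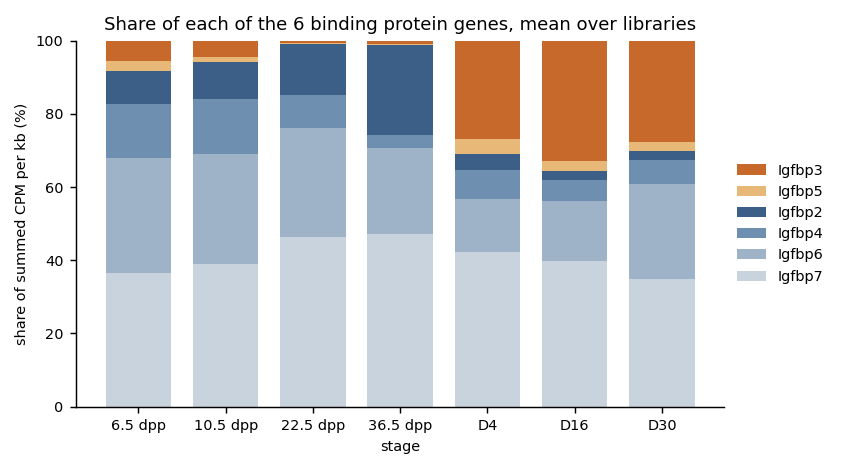
Mean share, over the libraries of each stage, of each binding protein gene in the summed CPM per kb of the 6 genes, in percent. Bars are stacked to 100%. Igfbp3 takes 26.8 to 32.8% in culture and 0.733 to 5.51% in vivo.

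Igf1, the ligand gene, had mean levels of 121 ± 23 CPM (SD, n = 4) at 6.5 dpp. It was 98.2, 101 and 72.5 CPM at 10.5 dpp, 44.9, 84.9 and 34.4 CPM at 22.5 dpp and 12.3 and 10.6 CPM at 36.5 dpp. Cultured explants held 174, 146 and 135 CPM at D4, 100.1 and 107 CPM at D16 and 70.2, 74.4, 109 and 95.2 CPM at D30. Each culture stage was above its age-matched testis without overlap, and D30 overlapped 10.5 dpp. The log2 fold changes were 0.83 ± 0.24 at D4 (edgeR adjusted p = 0.0394), 0.79 ± 0.26 at D16 (edgeR adjusted p = 0.0362) and 2.28 ± 0.29 at D30 (edgeR adjusted p = 3.59e-06). The D4 call was lost when any 1 of its 6 libraries was left out, by library size alone, with fresh tissue only and with 6.5 dpp fresh replicate 1 kept. The D16 call was lost without 22.5 dpp replicate 1 or 3 or either D16 library, with 6.5 dpp fresh replicate 1 kept and in a fit of these 2 stages alone, and the D30 call held in all 30 alternatives. In vivo Igf1 fell by 1.72 on the log2 scale from 22.5 to 36.5 dpp (SE 0.29, edgeR adjusted p = 0.000129), and from 10.5 to 22.5 dpp the value was -0.47 ± 0.24 (edgeR adjusted p = 0.0989).

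None of the 3 receptor genes passed the test at D4 or D16, and 2 of them did at D30. Igf1r, the receptor through which IGF1 mainly signals, was 170, 145 and 166 CPM at 10.5 dpp, 52.2, 80.9 and 46.9 CPM at 22.5 dpp and 13.5 and 23.0 CPM at 36.5 dpp, against 122, 117 and 113 CPM at D4, 48.7 and 91.3 CPM at D16 and 61.8, 44.6, 100 and 48.7 CPM at D30. D4 lay below 10.5 dpp, D16 overlapped 22.5 dpp and D30 lay above 36.5 dpp. The log2 fold changes were -0.36 ± 0.37 and 0.08 ± 0.42 at D4 and D16, neither called, and 1.15 ± 0.42 at D30 (edgeR adjusted p = 0.0217). The D30 call was lost without 36.5 dpp replicate 1 or D30 replicate 3, under RLE factors and under scaling to somatic markers. In vivo Igf1r fell by 1.14 (SE 0.38, edgeR adjusted p = 0.0143) and then by 1.19 (SE 0.44, edgeR adjusted p = 0.0306) on the log2 scale, and under scaling to somatic markers neither fall was called (edgeR adjusted p = 0.333 and 0.316). The call of the first fall was also lost without 22.5 dpp replicate 3. That of the second was also lost under RLE factors and without 22.5 dpp replicate 2 or 36.5 dpp replicate 1.

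Igf2r, encoding the receptor that clears IGF2, was 167, 161 and 187 CPM at 10.5 dpp, 69.1, 100.2 and 68.1 CPM at 22.5 dpp and 9.47 and 22.1 CPM at 36.5 dpp. In explants it was 182, 193 and 169 CPM at D4, 70.4 and 109 CPM at D16 and 81.9, 60.0, 101 and 49.4 CPM at D30. D4 and D16 overlapped their age-matched testes, and D30 was higher than 36.5 dpp by 1.56 ± 0.43 on the log2 scale (edgeR adjusted p = 0.00381), a call lost without 36.5 dpp replicate 1 and under scaling to somatic markers. The in vivo fall from 22.5 to 36.5 dpp was 1.80 on the log2 scale (SE 0.45, edgeR adjusted p = 0.00305), a call lost without 36.5 dpp replicate 1 and under scaling to somatic markers (-1.17, edgeR adjusted p = 0.0538). The antisense gene Airn overlaps Igf2r and had 2202 counts over the 21 libraries.

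Insr, the insulin receptor gene, was 45.9, 41.3 and 45.2 CPM at 10.5 dpp, 25.1, 34.5 and 18.8 CPM at 22.5 dpp and 17.4 and 37.0 CPM at 36.5 dpp, against 68.9, 56.9 and 48.0 CPM at D4, 34.6 and 52.3 CPM at D16 and 37.8, 31.0, 51.5 and 26.8 CPM at D30. It passed the test in none of the 3 age-matched comparisons, with 0.48 ± 0.38, 0.59 ± 0.42 and -0.22 ± 0.40 (log2, SE), although the CPM at D4 and at D16 lay above those of the matched testes without overlap. Per kilobase its mean was the lowest of the receptor genes at every stage except 36.5 dpp, where its mean of 1.98 ± 1.0 CPM per kb was beside 1.70 ± 0.96 for Igf2r and 1.09 ± 0.40 for Igf1r, within the spread of the 2 libraries.

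**Figure D3:**
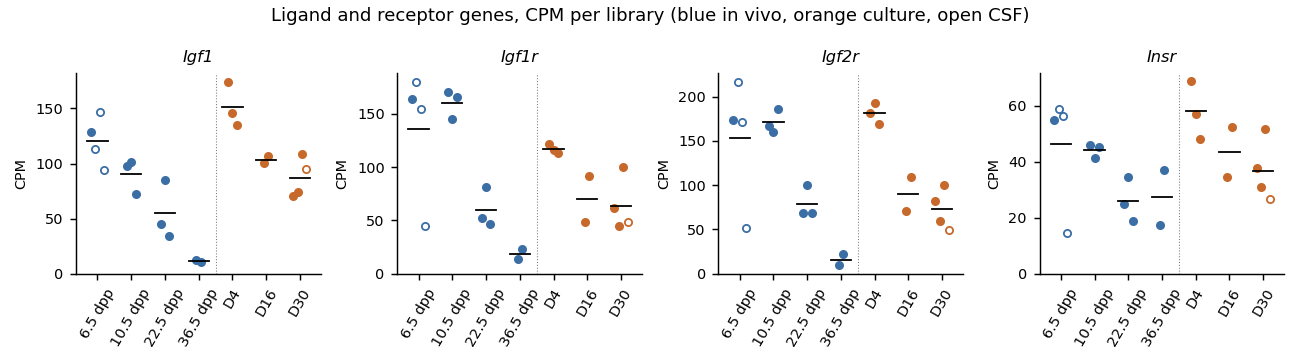
Levels of Igf1 and of the receptor genes Igf1r, Igf2r and Insr in each of the 21 libraries, in CPM on linear axes starting at 0, by stage. Points are libraries (blue in vivo, orange culture, open symbols CSF) and bars are stage means. Igf1, Igf1r and Igf2r are lowest at 36.5 dpp, and the open symbol at the bottom of the 6.5 dpp column of each receptor is CSF replicate 3.

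The spread of the receptors within a stage went with transcript length. In 6.5 dpp CSF replicate 3 Igf1r stood at 45.0 CPM beside 155 to 180 in the other libraries of that age, Igf2r at 51.3 beside 171 to 216, and Insr at 14.6 beside 54.9 to 58.8, whereas Igfbp2 and Igfbp6, with exon lengths of 1.85 and 1.11 kb, were at their highest. Over all genes above 5 CPM, the 2339 with exons over 8 kb had a median log2 difference of -0.929 in that library from the others of its stage, and the 951 under 1.5 kb one of 0.589. The pairs of libraries at 36.5 dpp and D16 also differed in this way, with long minus short of -0.997 in 36.5 dpp replicate 1 and -1.142 in D16 replicate 1 relative to their partners. D30 fresh replicate 3 stood at 1.085 relative to the other D30 libraries. It held the highest Igf1r (100 CPM), Igf2r (101 CPM) and Insr (51.5 CPM) of D30. As given above, the D30 call of Igf1r was lost without it, and those of Igf1r and Igf2r without 36.5 dpp replicate 1. Exon lengths are 16.8 kb for Igf1r, 13.7 kb for Insr and 9.31 kb for Igf2r. Not every member followed length. Igfbp7 (1.21 kb) was lower in replicate 1 than in replicate 2 at 36.5 dpp (50.1 and 57.4 CPM) and D16 (212 and 276 CPM). Igf1 (9.90 kb) was higher in replicate 1 at 36.5 dpp (12.3 and 10.6 CPM). The part of the length difference in the receptor results was not tested. Without CSF replicate 3 the calls of the 3 age-matched comparisons were the same genes as with it.

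**Figure D4:**
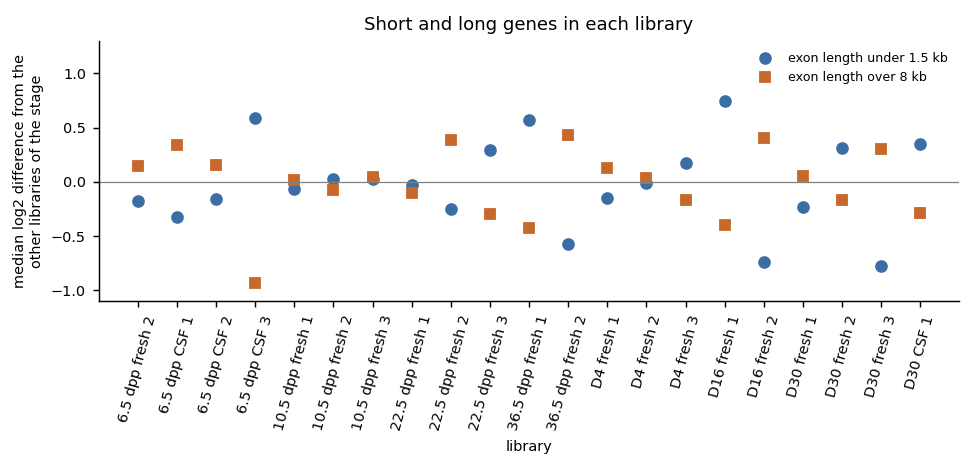
Median log2 difference of each library from the other libraries of its stage for genes with exon length under 1.5 kb (circles) and over 8 kb (squares). The vertical axis is a log2 difference of CPM with a pseudocount of 1, and the libraries stand along the horizontal axis. For long genes 6.5 dpp CSF replicate 3 is furthest from its stage, at -0.929, and for short genes, where it is at 0.589, D30 fresh replicate 3 at -0.78 and the D16 pair at 0.74 and -0.74 are further.

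In counts, 4 of the 10 genes were higher at D4 than at 10.5 dpp (Igf1, Igfbp3, Igfbp5, Igfbp7), where 4.92% of all genes tested were called higher and 3.18% lower. At D16 against 22.5 dpp 5 were higher (the same 4 and Igfbp4) and 1 lower (Igfbp2), beside 14% and 11.8% of all genes. At D30 against 36.5 dpp 8 were higher and 1 lower (Igfbp2), with Insr not called, beside 32.4% and 35%. The 10 were chosen with earlier results of these data known, so these counts are a description. The median log2 fold change of the 10 was 0.33, 0.57 and 1.49 in these 3 comparisons, and that of all genes -0.01, -0.08 and -0.03. Scaling moved the whole table, since 48.0% of the genes called at D30 were higher with TMM, 65.8% by library size alone, 40.0% with RLE factors and 29.2% when scaled to somatic markers, where 4 members (Igf1, Igfbp3, Igfbp4, Igfbp5) stayed higher and Igfbp2 lower. At D16 these shares were 54.3%, 68.0%, 43.9% and 91.8%, and at D4 60.7%, 50.1%, 57.7% and 92.7%. Under the scaling to somatic markers the median of all genes moved to 0.43 at D4, 0.23 at D16 and -0.63 at D30, and by library size alone to 0.60 at D30.

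**Figure D5:**
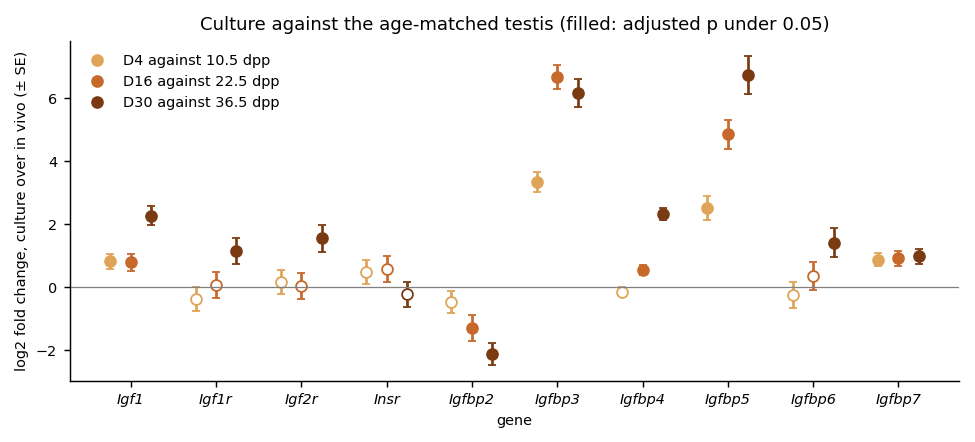
Log2 fold change of each of the 10 genes between culture and the age-matched testis, from edgeR with TMM scaling, for D4 against 10.5 dpp, D16 against 22.5 dpp and D30 against 36.5 dpp. Bars are standard errors, and filled points have an adjusted p under 0.05. Igfbp3 reaches 6.69 at D16 and Igfbp5 6.75 at D30, while Igfbp2 goes down to -2.11.

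Whether the culture effect itself differed between stages was tested as a difference of log2 fold changes. From D4 to D16 it became larger for 2 genes, Igfbp3 by 3.36 ± 0.44 (edgeR adjusted p = 0.000278) and Igfbp5 by 2.34 ± 0.55 (edgeR adjusted p = 0.0154), beside 5.26% of all genes higher and 4.36% lower. Both of these calls were lost with 6.5 dpp fresh replicate 1 kept, and that of Igfbp5 without 22.5 dpp replicate 1. Each difference is the step within culture less the matched step in vivo. From D4 to D16 Igfbp3 changed by 0.32 ± 0.32 and Igfbp5 by -0.55 ± 0.41 in culture, neither called. In vivo Igfbp3 fell by 3.04 and Igfbp5 by 2.88 on the log2 scale from 10.5 to 22.5 dpp. From D16 to D30 the effect became larger for Igf1 by 1.49 ± 0.38 (edgeR adjusted p = 0.0115) and Igfbp4 by 1.77 ± 0.24 (edgeR adjusted p = 0.000125), beside 11.5% higher and 8.63% lower. Scaled to somatic markers these differences were 0.50, not called, and 0.82, called, with Igfbp2, Igfbp3, Igfbp7 and Insr then called lower beside 4843 of all genes lower and 204 higher. The call of Igf1 was also lost without D16 replicate 1 and in a fit of the stages compared alone. From D16 to D30 Igf1 changed by -0.23 ± 0.25 and Igfbp4 by -0.18 ± 0.16 in culture, neither called. In vivo Igf1 fell by 1.72 and Igfbp4 by 1.95 on the log2 scale from 22.5 to 36.5 dpp. From D4 to D30, the effect was higher for 7 genes and more negative for Igfbp2 (by -1.66 ± 0.50, edgeR adjusted p = 0.0122), beside 25.8% and 20.7%. The call of Igfbp2 was lost by library size alone (-0.94, edgeR adjusted p = 0.113), without 36.5 dpp replicate 1 and with 6.5 dpp fresh replicate 1 kept, and the latter also ended those of Igf2r and Igfbp6. The largest of these were Igfbp5 at 4.23 ± 0.64, Igfbp3 at 2.84 ± 0.46 and Igfbp4 at 2.46 ± 0.23, each called in all 30 alternatives. For Igfbp7 the D30 effect exceeded the D4 effect by 0.11 ± 0.30, which was not called, and scaled to somatic markers the difference was -0.99 and was called.

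Along the ages in vivo, none of the 10 was called between 6.5 and 10.5 dpp by edgeR, where 0.675% of all genes were higher and 0.467% lower. At an unadjusted p under 0.05 there was 1, Igfbp5 at -1.15 ± 0.35, and DESeq2 called that gene as lower at 10.5 dpp. From 10.5 to 22.5 dpp 4 were lower (Igf1r, Igfbp3, Igfbp4, Igfbp5), beside 33.6% of all genes higher and 27.9% lower. From 22.5 to 36.5 dpp 6 were lower (Igf1, Igf1r, Igf2r, Igfbp4, Igfbp5, Igfbp7), beside 23.3% and 27.5%. The fall of Igfbp7, 0.59 on the log2 scale (SE 0.24, edgeR adjusted p = 0.0455), held in 10 of 30 alternatives, not with 6.5 dpp fresh replicate 1 kept, and became 0.037 when scaled to somatic markers. Over the whole span Igfbp5 was 159 times higher at 6.5 than at 36.5 dpp in mean CPM, Igfbp3 21.7 times, Igfbp4 16.4 times and Igf1 10.5 times, while the 36.5 dpp libraries of Igfbp2 overlapped those of 6.5 dpp. Those of Insr overlapped 6.5 dpp through CSF replicate 3 alone, the other 6.5 dpp libraries being higher. The ratios of mean CPM given here leave out the TMM factors, which were lowest at 36.5 dpp, and are smaller with them.

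Steps within culture were tested too. D4, which was cultured fresh, against the 6.5 dpp libraries, of which 3 of 4 are CSF, gave 3 higher genes, Igfbp3, Igfbp5 and Igfbp7 (0.78 ± 0.19, edgeR adjusted p = 0.00791), beside 10.8% of all genes higher and 10.1% lower. With fresh tissue only, which left 1 library of 6.5 dpp, the values were 3.19 for Igfbp3 and 1.77 for Igfbp5, and the call of Igfbp7 was lost. The spread at 6.5 dpp cannot be seen in that fit. D16 against D4 gave 1, Igfbp4 lower by -0.49 ± 0.17 (edgeR adjusted p = 0.0452), beside 18.4% and 5.48%. That call held in 15 of 30 alternatives, not with 6.5 dpp fresh replicate 1 kept, and the value was 0.11 when scaled to somatic markers. D30 against D16 gave none by edgeR or DESeq2, and 2 at an unadjusted p under 0.05, beside 1.46% and 0.332%.

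The levels of cell type markers moved between the same groups, and in bulk RNA fewer cells of a type and less RNA per cell cannot be told apart. The 4 spermatid markers (Acrv1, Prm1, Prm2, Tnp1) summed to between 13875 and 17388 CPM at 36.5 dpp and between 267 and 1312 CPM at D30. All 5 Sertoli markers were detected at every stage, and their sum was 81.9 to 92.3 CPM at 36.5 dpp, 730 to 1300 CPM at D30, and 1031 to 1092 CPM at 10.5 dpp beside 1193 to 1412 CPM at D4. Of these markers Cldn11 went from 412 to 494 CPM at 10.5 dpp to 730 to 929 CPM at D4, Amh was lower at D4 (211 to 237 CPM beside 348 to 388 CPM), and Fshr and Sox9 overlapped. Rhox5 was 1.32 to 1.80 CPM at D4 beside 0.382 to 1.25 CPM at 10.5 dpp. At D30 Rhox5 (1.31 to 3.02 CPM) overlapped 36.5 dpp (1.67 to 1.78 CPM), and the other Sertoli markers lay above 36.5 dpp without overlap. The 4 stromal markers summed to 109 to 207 CPM at 36.5 dpp and 1087 to 1645 CPM at D30, and to 427 to 757 CPM at 22.5 dpp and 1376 to 1443 CPM at D16. The 4 endothelial markers summed to 17.1 to 20.0 CPM at 36.5 dpp and 131 to 174 CPM at D30. Of these Cdh5, Kdr and Pecam1 were higher at D30 without overlap. Tek was lower, at 1.73 to 2.68 CPM beside 3.18 to 4.91 CPM at 36.5 dpp. The sum of the 5 Leydig markers went the other way from the sums above, with 988 to 1144 CPM at 10.5 dpp and 291 to 509 CPM at D4, and 1549 to 1925 CPM at 36.5 dpp and 317 to 571 CPM at D30. At D30 Cyp17a1, Cyp11a1 and Insl3 lay below 36.5 dpp without overlap, while the CPM of Star and Hsd3b1 overlapped. The peritubular markers summed to 840 to 931 CPM at 10.5 dpp and 366 to 563 CPM at D4, and to 70.1 to 75.9 CPM at 36.5 dpp and 229 to 461 CPM at D30. The macrophage markers summed to 43.6 to 57.1 CPM at 10.5 dpp and 10.2 to 12.8 CPM at D4, and to 23.9 to 26.2 CPM at 36.5 dpp and 68.0 to 109 CPM at D30. The part of these levels in the results on the axis was not tested. Igfbp3 and Igfbp5 were higher in culture at each stage with libraries scaled to somatic markers, by 3.79, 7.07 and 5.59 for Igfbp3 and by 2.98, 5.22 and 6.15 for Igfbp5 on the log2 scale. That set mixes Leydig markers, whose sum was lower in culture, with Sertoli markers such as Cldn11, which was higher at D4. The scaling thus does not hold the content of somatic cells fixed.

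Beyond the 10, 57 genes of the pathway in 7 lists, also chosen with earlier results known, were read in the same fit, and 56 passed the filter. At D4 against 10.5 dpp 3 were higher and 4 lower, at D16 against 22.5 dpp 15 were higher and 4 lower, and at D30 against 36.5 dpp 35 were higher and 10 lower. Of all genes tested, 4.92% were higher and 3.18% lower in the first of these comparisons, 14% and 11.8% in the next and 32.4% and 35% in the last, and the counts of each list below stand beside the same shares. The other ligands were scarce. Igf2, the fetal growth factor, was at 7.10 ± 3.5 CPM (SD, n = 4) at 6.5 dpp and 2.69 ± 0.087 CPM at D4, and at 1.62 ± 0.52 CPM at D16 against 0.484 ± 0.25 CPM at 22.5 dpp (log2 fold change 1.60 ± 0.48, edgeR adjusted p = 0.024). Ins2 was 4.22 ± 1.2 CPM at 10.5 dpp and 1.18 ± 0.33 CPM at D4 (-1.74 ± 0.47, edgeR adjusted p = 0.029), and Ins1 had no count in any of the 21 libraries. Igfals, which encodes the serum partner of IGFBP3, was 2.40 ± 0.17 CPM at 36.5 dpp and 0.341 ± 0.27 CPM at D30 (-3.42 ± 0.58, edgeR adjusted p = 6.4e-05). Of the 8 tested genes of that list (other ligands, binding proteins and receptors), 1 was lower at D4, 2 were higher at D16, and 4 were higher and 2 lower at D30, with medians of -0.28, 0.44 and 1.33. Igfbpl1 was higher at D16 (0.87 ± 0.31), and at D30 Insrr, the insulin receptor-related receptor gene (2.10 ± 0.77), and Lrp1, an endocytic receptor that binds IGFBP3 (1.93 ± 0.53), were higher and Tmem219, encoding a proposed IGFBP3 receptor, lower (-0.96 ± 0.29).

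All 6 genes of the proteases that cut binding proteins, and of their inhibitors, were tested, with medians of 0.94, 0.47 and 1.91. Htra1, a secreted serine protease that cuts binding proteins, was at 233 ± 29 CPM at D4, higher than at 10.5 dpp (1.84 ± 0.22, edgeR adjusted p = 3.4e-05). Pappa2, a protease of IGFBP3 and IGFBP5, was higher at D4 (1.67 ± 0.48, edgeR adjusted p = 0.037) but lower at D30 (-2.89 ± 0.46, edgeR adjusted p = 4e-05), with levels of 0.186 to 1.94 CPM in the stage means. Pappa, the protease of IGFBP4, was lower at D30 (-2.26 ± 0.45, edgeR adjusted p = 0.00028), at 9.12 ± 3.5 CPM against 27.9 ± 11 CPM at 36.5 dpp. Stc1, whose product stanniocalcin 1 inhibits the PAPP-A proteases, was higher at D16 (3.56 ± 0.60, edgeR adjusted p = 0.00051) and at D30 (4.76 ± 0.74, edgeR adjusted p = 2.9e-05). Its culture means were 24.2, 22.4 and 22.5 CPM at D4, D16 and D30, against 41.4 ± 13 CPM in the 6.5 dpp tissue. Adamts1 was also higher at D16 (1.84 ± 0.38) and D30 (3.51 ± 0.45).

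The genes of growth hormone input, all 5 tested, had medians of 0.12, 0.78 and 1.64. Socs2, the feedback inhibitor of the growth hormone receptor, was lower at D4 (-1.29 ± 0.25, edgeR adjusted p = 0.0028), and all 5 were higher at D30, led by Stat5b (2.13 ± 0.31) and Jak2 (2.10 ± 0.28). Ghr, the growth hormone receptor gene, was higher at D16 (1.28 ± 0.27, edgeR adjusted p = 0.0035). Of the 10 receptor adaptors, 4 were higher at D16 and 7 higher and 1 lower at D30, with medians of 0.08, 0.57 and 1.22. Irs2, an insulin receptor substrate, was higher at D16 (1.42 ± 0.45, edgeR adjusted p = 0.03), as was Grb14 (1.13 ± 0.22), an inhibitor of the insulin receptor, and at D30 Sos2 (2.33 ± 0.30) and Grb2 (1.94 ± 0.22) were higher and Irs4 lower (-2.68 ± 0.42).

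Of the 17 genes of PI3K, AKT and mTOR, 1 was lower at D4, 1 higher and 2 lower at D16, and 8 higher and 3 lower at D30, where 32.4% of all genes were higher and 35% lower, with medians of -0.04, -0.03 and 0.50. Eif4ebp1, the translation repressor that mTOR phosphorylates, was lower at D4 (-0.51 ± 0.14, edgeR adjusted p = 0.033) and higher at D16 (1.29 ± 0.16, edgeR adjusted p = 3e-05). Pik3r3 was lower at D16 (-0.62 ± 0.19). Mtor itself was lower at D16 (-1.09 ± 0.37) and D30 (-1.15 ± 0.33), and Pdpk1 lower at D30 (-1.69 ± 0.27), where Rictor (1.86 ± 0.38) and Pik3r1 (1.79 ± 0.32) were higher. Of the 7 FOXO factors and targets, 3 were higher and 1 lower at D16 and 6 higher at D30, with medians of 0.08, 0.68 and 1.24. Klf6 had the highest values, 1.82 ± 0.24 at D16 and 2.78 ± 0.27 at D30, and Foxo1 was higher at D30 (1.66 ± 0.30), while Sesn1 was higher (0.52 ± 0.16) and Sesn3 lower at D16 (edgeR adjusted p = 0.0062). Of the 3 Igf2 mRNA binding proteins, Igf2bp1 was lower at D4 (-0.80 ± 0.22) and D30 (-0.89 ± 0.22), Igf2bp3 lower at D16 (-1.27 ± 0.37) and D30 (-2.93 ± 0.32), and Igf2bp2 higher at D30 (1.60 ± 0.25).

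Among the genes whose levels ran most like Igfbp3 over the 21 libraries, by Pearson correlation of log2(CPM + 1) across 19657 genes, were Fst (follistatin, r = 0.977), Kcnj8 (a potassium channel subunit, r = 0.965), Maff (a small Maf transcription factor, r = 0.964) and Icam2 (an adhesion molecule of endothelium, r = 0.957). For Igf1 they were Nr1d2 (r = 0.983), B3glct (r = 0.982), Zmat1 (r = 0.981), Naa16 (r = 0.980) and Hp1bp3 (r = 0.980). The points are libraries, several of which share a stage, so these values are a description.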

How the data were processed

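The deposited values were raw counts of reads per gene in 1 table, which the authors made from stranded TruSeq polyA libraries read single-end over 50 bases, aligned to GRCm38 with STAR 2.7.3a and counted with HTSeq 0.12.4 in intersection-nonempty mode. The strand setting is not given in the sources used here. The 10 members and the 7 pathway lists were chosen with earlier results of these data known. Levels were computed as CPM of the library total, or per kb of the union of GENCODE M21 exons. Fold changes came from edgeR 4.0.16 in R 4.3.3 (filterByExpr, TMM factors, quasi-likelihood F test, Benjamini-Hochberg over 19255 genes, threshold 0.05) in 1 fit of 21 libraries and 7 stages, fresh and CSF tissue together, with SE = |log2 fold change|/√F. Differences of culture effects were contrasts in that fit. The test was also run on simulated counts in which 200 genes were changed at D16 alone and the stages were otherwise alike. Group and replicate came from the sample labels. The libraries held 28351546 to 69029328 counts. Reads carry no molecular identifiers, so counts are not independent molecules. Alternatives were RLE and library size scaling, scaling to the geometric mean of Sertoli, Leydig, peritubular and stromal markers, no filter, DESeq2 1.42.0, 6.5 dpp fresh replicate 1 kept, only the stages compared, fresh tissue only, a replicate block, each of the 21 libraries left out, and the study's threshold (log2 fold change of 2 or more in size, adjusted p of 0.001 or less). Named pathway genes were those called in a culture comparison, at most the 2 highest and 2 lowest of a list. For Igfbp3 and Igf1 the 5 genes of highest correlation were taken, of which 1 is not reported here. Promoters and positions came from RefSeq, GRCm38.p6. Plots used matplotlib 3.10.9.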

Additional observations from a re-analysis of the deposited data

Results flagged for a closer look

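Of the 20 sets of 4 libraries examined (10 genes at 6.5 dpp and at D30), 3 held a library far from the other 3 by Dixon's 95% limit, which chance passes in about 1 of 20 groups. In 6.5 dpp CSF replicate 3 Insr was low at 14.6 CPM and Igfbp2 high at 115 CPM, and at D30 the CSF library was low for Igfbp5 at 44.3 CPM.

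The library left out as 6.5 dpp fresh replicate 1 held Igfbp3 at 438 CPM, above the 48.7 to 91.0 CPM of the other 6.5 dpp libraries.

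The effect of culture against the age-matched testis differed between stages by a test of the difference itself in 12 cases. Each difference is the step within culture less the matched step in vivo. Within culture, D16 against D4 was called for Igfbp4 alone, which was lower, and D30 against D16 for no member. The D16 effect exceeded the D4 effect by 3.36 for Igfbp3 and 2.34 for Igfbp5 on the log2 scale. The D30 effect exceeded the D16 effect by 1.49 for Igf1 and 1.77 for Igfbp4. Relative to the D4 effect, the D30 effect was larger by 4.23 for Igfbp5, 2.84 for Igfbp3, 2.46 for Igfbp4, 1.66 for Igfbp6, 1.51 for Igf1r, 1.45 for Igf1 and 1.39 for Igf2r, and that of Igfbp2 was more negative, by -1.66. Scaled to somatic markers the value of Igf1 was 0.34 and was not called, and by library size alone that of Igfbp2 was -0.94 and was not called. The values of Igf2r held their call in 12 of 30 alternatives, and those of Igf1r and Igfbp6 in 21.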

How the results depend on the processing

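Of 45 called values of the 10 genes, 19 kept the call in all 30 alternatives and 2 reversed, both under scaling to somatic markers (Igfbp7 at 36.5 against 22.5 dpp, 0.037, and Igfbp4 at D16 against D4, 0.11). Of 75 values not called, 27 passed under some alternative. Counts of called members follow, and the causes of the changes were not tested. Fitting only the stages compared gave 7 for D4 against 10.5 dpp, 3 for D16 against 22.5 dpp, 7 for 22.5 against 10.5 dpp, 3 for D16 against D4 and 4 for the D16 minus D4 effect. The study's threshold gave 2, 2 and 5 in the age-matched comparisons, 2 for 22.5 against 10.5 dpp, 0 for 36.5 against 22.5 dpp, 1 for D4 against 6.5 dpp, 0 for D16 against D4, and 1, 0 and 3 for the effects D16 minus D4, D30 minus D16 and D30 minus D4. Keeping 6.5 dpp fresh replicate 1 gave 3 at D16 against 22.5 dpp, 1 at D4 against 6.5 dpp, 0 at D16 against D4, 0 for D16 minus D4 and 5 for D30 minus D4. Somatic scaling gave 5 at D30 against 36.5 dpp, 1 at D30 against D16 and 5 for D30 minus D16 (1 higher and 4 lower, beside 204 and 4843 of all genes). DESeq2 gave 1 at 10.5 against 6.5 dpp. No filter gave 0, and fresh tissue only 2, at D16 against D4. For D30 minus D16 library size alone and fresh tissue only gave 4 each, and RLE gave 5 for D30 minus D4.

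Leaving out 1 library at a time gave 2 to 4 at D4 against 10.5 dpp (2 without 10.5 dpp replicate 1 or 3 or D4 replicate 3), 2 to 6 at D16 against 22.5 dpp (3 without 22.5 dpp replicate 1 or D16 replicate 1, 2 without D16 replicate 2), 7 to 9 at D30 against 36.5 dpp, 0 to 1 at 10.5 against 6.5 dpp (1 without CSF replicate 3), 3 to 5 at 22.5 against 10.5 dpp, 4 to 6 at 36.5 against 22.5 dpp, 0 to 3 at D16 against D4, 1 to 3 for D16 minus D4 (1 without 22.5 dpp replicate 1), 1 to 4 for D30 minus D16 (4 without CSF replicate 3 of 6.5 dpp, 1 without D16 replicate 1) and 5 to 8 for D30 minus D4 (5 without 10.5 dpp replicate 3, 36.5 dpp replicate 1 or D4 replicate 1).

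Whether replicate numbers pair the samples was not settled. Over 64 same-numbered pairs the correlation of deviations from the stage means ran from -0.527 to 0.661 with a median of 0.009, and 16 were over 0.1. Over 123 pairs with different numbers it ran from -0.682 to 0.682 with a median of -0.007, and 27 were over 0.1. In a stage of 2 libraries the deviations mirror each other, so values of both signs were fixed in advance. A replicate block gave 4, 6 and 9 called members in the age-matched comparisons, 0, 4 and 5 in vivo, 3, 0 and 0 within culture, and 3, 3 and 8 for the effects.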
